A study of Mus musculus with 2 samples.

Results

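Afp and 8 further genes of secreted proteins of the fetal liver and yolk sac, Alb, Ttr, Apoa1, Apoa2, Apob, Fgb, Fga and Ahsg, were followed in mouse ureters at E14.5. Afp was selected on its higher ratio in the labelled knockout on these arrays, and the other 8 were chosen as like products and ask whether that difference extends to other products of the same kind. The members were all non-control probes that the array files name for these genes, which gave 9 of 29875 genes and 12 of 39429 probes. Of these, 8 genes and 9 probes passed the filter on dim probes. Apoa1 did not pass and was not tested.

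The knockout is labelled Pax2-cre/+;Smad4(fl/fl) in the study's title and Pax-cre/+;Smad4(fl/fl) in the genotype label, and the control is labelled Smad4(fl/?), with the second allele not given. Both are of the NMRI strain. The sample titles call the knockout Smad4cKO (UE), and UE is not spelled out there. Dissected ureters gave total RNA, of which 150 ng entered each labelling, and a knockout and a control sample were hybridised together on each of 2 two-colour arrays. On replicate 1 both samples are labelled female and the knockout was in Cy3, and on replicate 2 both are labelled male and the knockout was in Cy5. Sex and dye orientation therefore changed together and cannot be told apart. Pax2-cre expresses the Cre recombinase under Pax2 control, and Pax2 is active in the nephric duct epithelium and also in metanephric mesenchyme. The sources used here do not say whether a sample pools embryos, so the error terms measure only the spread between these arrays, which may be technical.

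Alpha-fetoprotein, the product of Afp, is the main plasma protein of the fetus and belongs to the albumin family. It is made by the visceral endoderm of the yolk sac and by fetal hepatocytes, and its gene is shut down in liver after birth. Albumin, transthyretin, the apolipoproteins, the fibrinogen chains and fetuin-A come from the same hepatocyte secretory programme, which depends on HNF1, HNF4A, FOXA and C/EBP factors.

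All ratios below are log2 of labelled knockout over labelled control, so a positive value means higher in the labelled knockout, and intensities are log2 values of single channels. The direction rests on the dyes given in the labels. By them the authors' deposited table runs control over knockout, whereas its sample titles name the knockout first, and if the dye labels were exchanged the sign of every ratio here would turn. A gene was tested with limma over 20104 genes with Benjamini-Hochberg adjustment, and 66 genes (0.328%) had an adjusted p under 0.05, of which 46 (0.229%) were higher in the labelled knockout. Between 66.5% and 69.1% of probes were well above background in each channel. Across all genes the ratios of the 2 arrays hardly correlated (Pearson's r = 0.0168 across genes, which are not independent replicates). Smad4 itself had ratios of -0.58 on the female array and -0.08 on the male array (limma adjusted p = 1), and the position of its probe against the deleted exons was not determined, so it is no check of the labels. The Y-linked Ddx3y had 9.04 on the female array and 12.4 on the male array in the labelled knockout, and 7.99 and 12.2 in the labelled control. Xist had 12.003 and 8.38 in the labelled knockout, and 12.1 and 9.95 in the labelled control. The sex labels of the arrays thus stood apart clearly, while Ddx3y was 1.05 higher in the labelled knockout of the female array and Xist 1.57 lower in the labelled knockout of the male array. The part of these differences in the members' values was not tested.

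Afp had the largest mean ratio of the members and was higher in the labelled knockout on both arrays. Its only probe, at chr5:90937781-90937840 of mm9, had log2 intensities of 12.01 on the female array and 13.08 on the male array in the labelled knockout, and of 10.43 and 12.04 in the labelled control. The male control therefore reached the level of the female knockout, and the groups overlapped when the arrays were not paired. The ratios were 1.59 on the female array (3.005-fold) and 1.04 on the male array (2.06-fold), with a mean of 1.31 ± 0.39 (SD, n = 2 arrays), or 2.49-fold. These values led to the choice of the members and are given as a description, with no test. In the authors' deposited table, turned to the same direction, Afp had log2 values of 1.68 and 1.06.

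**Figure D1:**
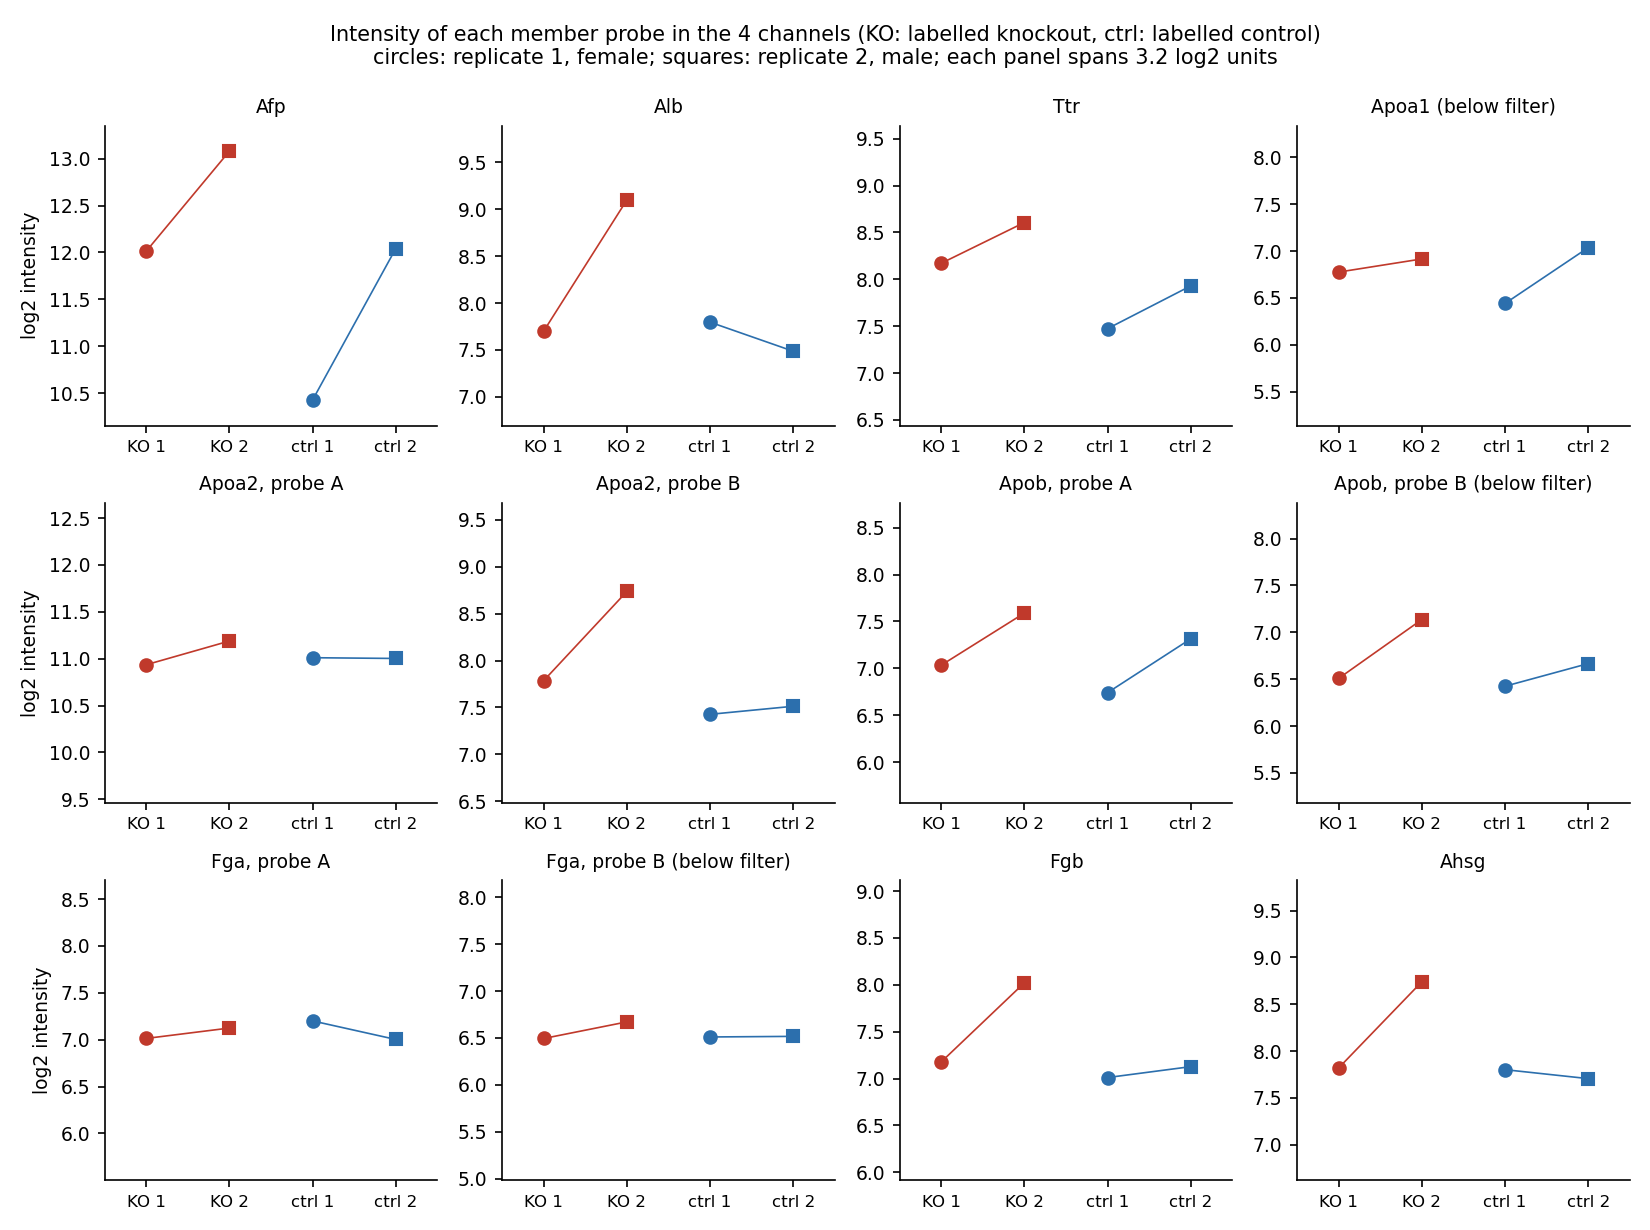
Log2 intensity of the 12 member probes in each of the 4 channels, with labelled knockout (red) left of labelled control (blue), circles for replicate 1 (female) and squares for replicate 2 (male). Panels share a span of 3.2 log2 units but not a zero, because levels of different probes cannot be compared. Afp, Ttr and Apob stood higher on the male array in both genotypes, whereas Alb, Ahsg, Fgb and the dimmer Apoa2 probe (probe B) stood high in the male labelled knockout alone.

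Alb, the gene of serum albumin, lies next to Afp on chromosome 5 and arose from the same ancestral gene. Because the pair is the closest comparison in the set, the 250 bases before each transcription start are shown (RefSeq, GRCm38.p6, plus strand, chr5:90490464-90490713 for Afp and chr5:90460620-90460869 for Alb). Capitals mark GTTAAT, the half-site that HNF1 factors bind, searched on both strands and overlapping no other motif searched.
Afp promoter: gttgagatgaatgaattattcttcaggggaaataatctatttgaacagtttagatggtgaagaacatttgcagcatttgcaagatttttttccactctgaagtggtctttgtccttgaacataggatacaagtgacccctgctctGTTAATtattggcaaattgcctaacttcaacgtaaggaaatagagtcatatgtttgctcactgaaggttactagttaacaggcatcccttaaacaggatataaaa
Alb promoter: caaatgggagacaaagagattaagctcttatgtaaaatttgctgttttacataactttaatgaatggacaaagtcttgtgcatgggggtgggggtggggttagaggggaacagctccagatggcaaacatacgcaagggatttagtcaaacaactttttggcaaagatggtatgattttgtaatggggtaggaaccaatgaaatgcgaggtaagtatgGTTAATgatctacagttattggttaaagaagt
The half-site began 105 bases before the start in Afp and 32 bases before it in Alb. Of the 8 members with a promoter in the table, Afp, Alb, Fga and Fgb held it, against 6.43% of all 32851 promoter windows of the same length. A match is a run of letters and not a site shown to be bound. The other motifs searched on both strands were the forkhead core TGTTTAC, found in 3.17% of windows and, among the members, in 1 of the 2 windows of Apoa2, the CCAAT box, in 33.8% of windows and in Afp, Alb and Apoa2, and TATAAA, in 12.4% of windows and in Afp, Apoa2 and Apob.

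Alb did not share the pattern of Afp. Its probe, at chr5:90901598-90901657 of mm9, is shown because Alb had the largest mean ratio among the members other than Afp, by the brightest kept probe of each gene.
Alb probe: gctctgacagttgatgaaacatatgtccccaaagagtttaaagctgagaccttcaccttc
It had log2 intensities of 7.70 on the female array and 9.10 on the male array in the labelled knockout, and of 7.80 and 7.49 in the labelled control. One channel was high, the male knockout, and the other 3 lay close together. The ratios were -0.09 on the female array and 1.61 on the male array (3.06-fold), and their mean of 0.76 ± 1.21 (SD, n = 2 arrays) did not pass (limma adjusted p = 0.949). In chromosome order the genes are Ankrd17, Alb, Afp, Afm, Albfm1 and Rassf6. The mean ratio was -0.03 for Ankrd17, -0.05 for Afm, the afamin gene of the albumin family, and 0.03 for Rassf6, and Albfm1 was below the filter and not tested. Gc, the vitamin D binding protein gene of the same family, had 0.15. None of these 4 tested genes passed.

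Ttr encodes transthyretin, the carrier of thyroid hormone and, with retinol-binding protein, of retinol. It had log2 intensities of 8.17 on the female array and 8.61 on the male array in the labelled knockout, and of 7.47 and 7.93 in the labelled control. Both knockout channels lay above both control channels. The ratios were 0.70 and 0.68, with a mean of 0.69 ± 0.0148 (SD, n = 2 arrays), or 1.61-fold, and the adjusted p of 0.0502 (limma) missed the threshold of 0.05. Of the 10 alternative ways of processing, Ttr passed in 7, with adjusted p between 0.000237 and 1 over all of them (limma). Ttr was the member with a ratio of similar size on both arrays that came nearest to Afp in the plot of the ratios on the 2 arrays.

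Apoa2 encodes a structural protein of high density lipoprotein and had 2 probes that disagreed. The brighter probe, which holds the polyadenylation signal AATAAA, had 10.94 on the female array and 11.19 on the male array in the labelled knockout and 11.01 and 11.002 in the labelled control, with ratios of -0.08 and 0.19 (mean 0.06, limma adjusted p = 1). The dimmer probe, at chr1:173156320-173156379 of mm9, is shown because its ratios were larger than those of the brighter one.
Apoa2 probe: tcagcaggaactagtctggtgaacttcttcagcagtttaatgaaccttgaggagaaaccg
It had 7.79 and 8.74 in the labelled knockout and 7.43 and 7.51 in the labelled control, with ratios of 0.36 on the female array and 1.23 on the male array. Its high channel was again the male knockout. No gene value was taken from this probe, and it is a description only.

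Apob, the main protein of very low density lipoprotein, had ratios of 0.29 and 0.28 (mean 0.28 ± 0.0127, SD, n = 2 arrays), and did not pass (limma adjusted p = 1). Its log2 intensities were 7.03 on the female array and 7.59 on the male array in the labelled knockout, and 6.74 and 7.31 in the labelled control. The control was well above background on 1 of 2 arrays, the male one. The probe thus passed the filter through the labelled knockout alone, where it was higher, and its ratios and p-values are a description only. Its size depended on the processing, since the scanner's processed signals gave 1.18 on the female array and 0.44 on the male array (mean 0.81, limma adjusted p = 0.011), and the authors' deposited table, turned, gave 0.87 and 0.41 (mean 0.64). The other Apob probe did not pass the filter, with ratios of 0.08 and 0.47. Apoa1, the main protein of high density lipoprotein, had 2 of 4 spots well above background in the female knockout, 1 in the male knockout, 0 in the female control and 4 in the male control, and its ratios of 0.34 and -0.12 stayed below the filter.

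The fibrinogen chains assemble into the soluble precursor of the clot from alpha, beta and gamma chains. Fgb, the beta chain, had 7.18 on the female array and 8.02 on the male array in the labelled knockout, and 7.01 and 7.13 in the labelled control. Its probe lies at chr3:82846334-82846393 of mm9 and is shown as the fibrinogen chain with the largest ratio.
Fgb probe: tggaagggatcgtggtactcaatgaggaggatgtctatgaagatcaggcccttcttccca
The ratios were 0.17 and 0.89 (1.86-fold on the male array), and the mean of 0.53 ± 0.51 (SD, n = 2 arrays) did not pass (limma adjusted p = 0.566). The high channel was the male knockout. Fga, the alpha chain, had 7.01 and 7.12 in the labelled knockout against 7.20 and 7.003 in the labelled control, with ratios of -0.19 and 0.12 (limma adjusted p = 1). Its other probe did not pass the filter. Fgg, the gamma chain, which was not a member, had ratios of 0.33 and 0.43 (limma adjusted p = 0.59).

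Ahsg encodes fetuin-A, a plasma protein that keeps calcium phosphate in solution. Its log2 intensities were 7.82 on the female array and 8.74 on the male array in the labelled knockout, and 7.80 and 7.71 in the labelled control. The ratios were 0.02 and 1.03 (2.05-fold on the male array), with a mean of 0.53 ± 0.72 (SD, n = 2 arrays), and it did not pass (limma adjusted p = 0.924). As for Alb and Fgb, the male knockout was the high channel.

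**Figure D2:**
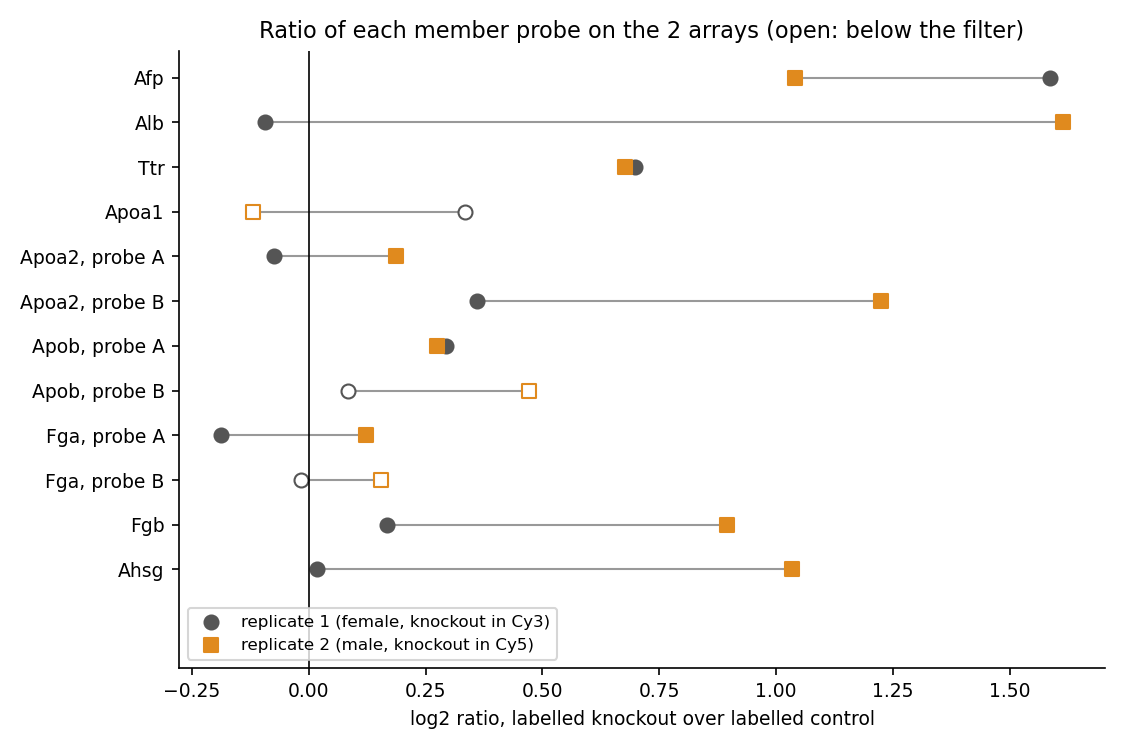
Log2 ratio of labelled knockout over labelled control for each member probe on replicate 1 (grey circles) and replicate 2 (orange squares), with open symbols for probes below the filter. Afp and Ttr were above 0.6 on both arrays, and Alb, Ahsg, Fgb and the dimmer Apoa2 probe (probe B) were above 0.8 on the male array only.

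Of the 7 tested members other than Afp, 0 passed the test (limma, with 0.328% of all genes called), while 5 had an unadjusted p under 0.05, as did 914 of all 20104 genes. On both arrays, 5 of 8 were above 0 (Afp, Ttr, Apob, Fgb and Ahsg), against 21.7% of all genes. Apob entered these counts through the labelled knockout alone, where it was higher. At least 1.5-fold higher in the labelled knockout on the female array were Afp and Ttr, against 0.627% of all genes, and the same 2 were so on both arrays, against 0.264% of all genes. The 1.5-fold mark was passed on the male array by Afp, Alb, Ttr, Fgb and Ahsg, against 0.92% of all genes and 1.52% of the 9775 genes in the intensity range of the members other than Afp. Both knockout channels lay above both control channels in Ttr, Fgb and Ahsg, against 13.9% of all genes. The choice of members rests on this contrast, and nothing is read from these counts. Among the 7 tested members other than Afp the median ratio was 0.02 on the female array and 0.68 on the male array. For all genes it was -0.0093 and -0.0034.

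The level of each member on the male array minus that on the female array, averaged over both genotypes, is not the ratio on which Afp was selected. The members were still chosen with earlier results of these data known, so these differences are a description. Afp was 1.34 higher on the male array, and 9 of 20104 genes, Afp included, had a difference at least as large. Apob differed by 0.57, Alb by 0.54, Fgb by 0.48, Ttr by 0.45 and Ahsg by 0.41. The 99th percentile of this difference over all genes was 0.29, and all 6 of these members lay above it. No percentile was taken within the intensity range of the members. Apoa2 differed by 0.12 and Fga by -0.04. With the scanner's processed signals, centred on the median gene, the difference was 1.19 for Apob, 0.88 for Fgb, 0.65 for Ttr and 0.34 for Fga, whose sign turned, while Afp had 1.36. Before centring, the processed signals of Ttr were 96.9 on the female array and 86.2 on the male array in the labelled knockout. They were 43.4 and 46.4 in the labelled control. The averages hide 2 kinds of member. Within the genotypes, Afp differed by 1.07 in the labelled knockout and 1.61 in the labelled control, Ttr by 0.43 and 0.46, and Apob by 0.56 and 0.57, so that these 3 were higher on the male array in both genotypes. In the female control, 0 spots of the Apob probe were well above background, so the size of its control difference is uncertain. Alb differed by 1.40 and -0.31, Ahsg by 0.92 and -0.10, and Fgb by 0.84 and 0.12, so that here the average came from the labelled knockout. The male knockout channel also gave these genes their ratios on the male array, so their averages are not independent of the contrast. Array, dye, sex and embryo are confounded in these differences and cannot be told apart.

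**Figure D3:**
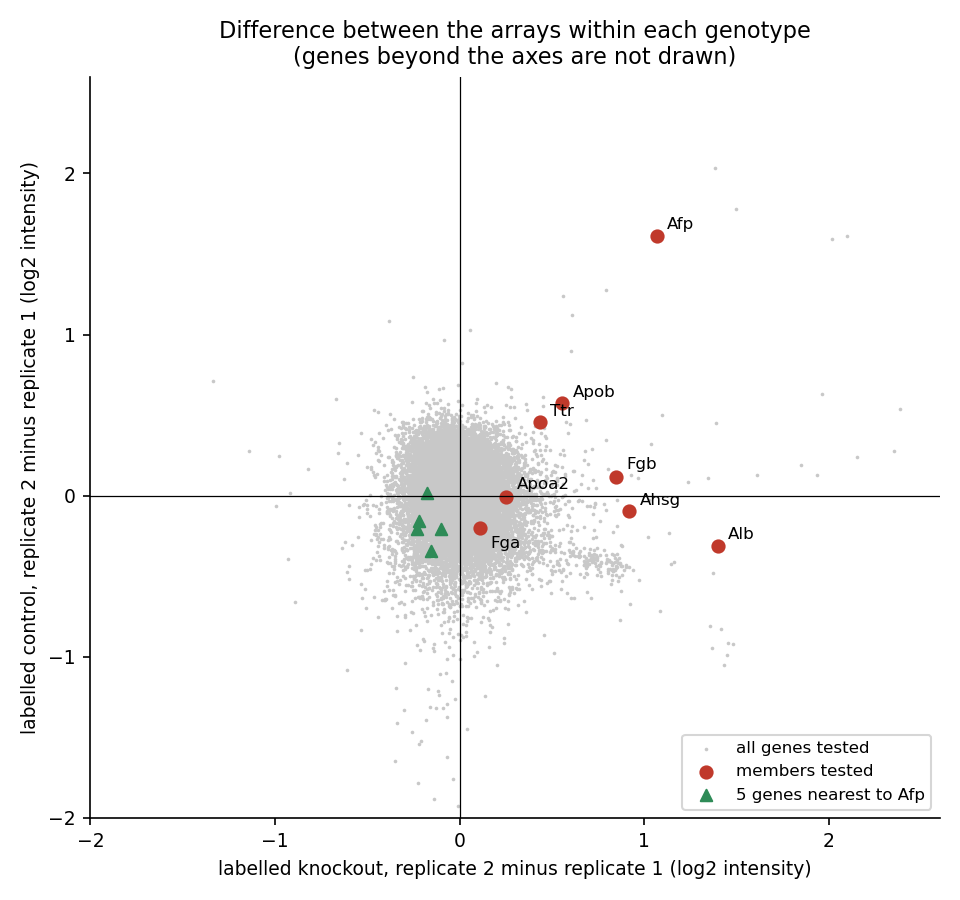
Difference in log2 intensity, replicate 2 minus replicate 1, in the labelled knockout (horizontal axis) and the labelled control (vertical axis) for all genes tested (grey), the 8 tested members (red) and the 5 genes nearest to Afp (green triangles). Afp, Apob and Ttr lie above 0.4 in both, Alb, Ahsg and Fgb lie far right only, and the 5 nearest genes lie at or below 0 in the labelled knockout. 6 genes lie beyond the axes.

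The genes whose pair of ratios lay nearest to that of Afp, by Euclidean distance over the 2 arrays, were Anxa8 (distance 0.361), Pdzk1 (0.372), Perp (0.464), Rab27b (0.516) and Upk1b (0.518). Anxa8 encodes an annexin, Pdzk1 a PDZ scaffold protein, Perp a desmosomal membrane protein, Rab27b a GTPase of vesicle transport and Upk1b a uroplakin. No other member was among them, as 49 genes lay nearer to Afp than Ttr did, 272 than Fgb, 407 than Apob, 617 than Ahsg, 4539 than Alb, 8194 than Apoa2 and 13672 than Fga. In contrast to Afp, whose level was 1.34 higher on the male array, the 5 nearest genes differed between the arrays by -0.25 to -0.08.

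**Figure D4:**
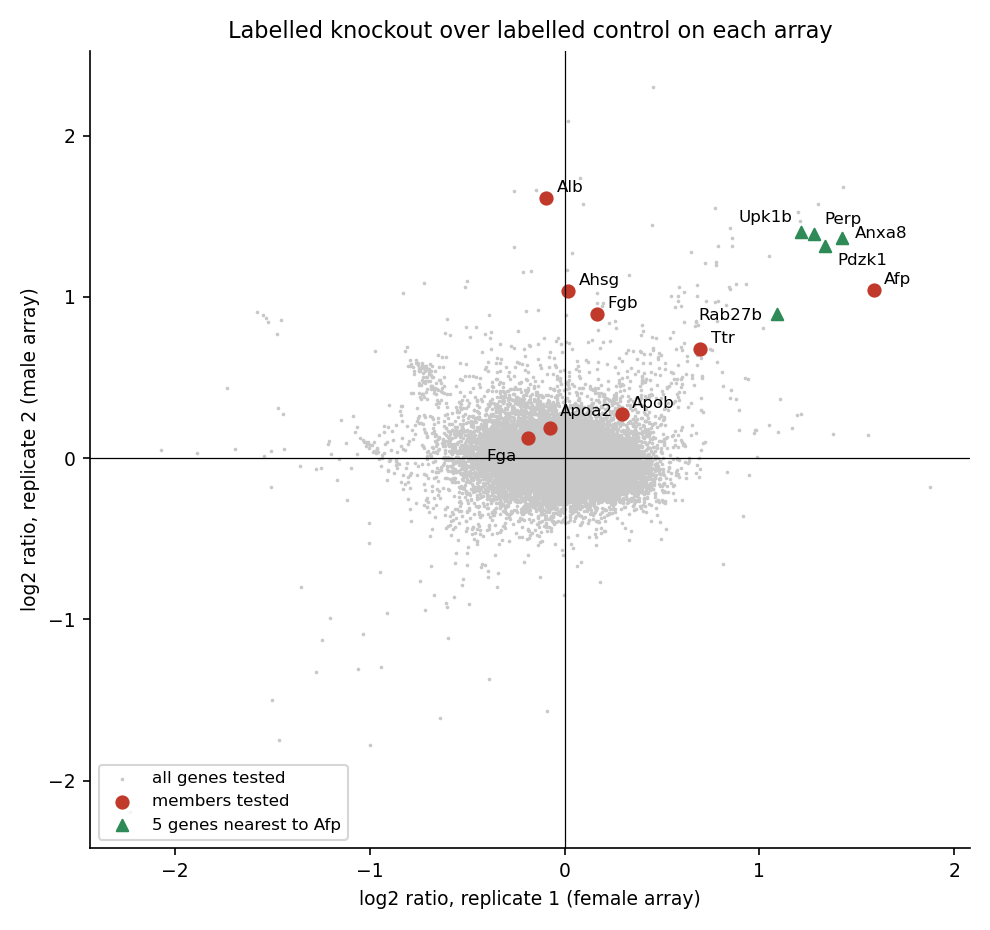
Log2 ratio of labelled knockout over labelled control on replicate 1 (horizontal axis) against replicate 2 (vertical axis) for all 20104 genes tested (grey), the 8 tested members (red) and the 5 genes nearest to Afp (green triangles). Afp sits with the green triangles in the upper right, Ttr follows at 0.70 and 0.68, Alb, Ahsg and Fgb sit near 0 on the female array, and Apob, Apoa2 and Fga sit within the cloud.

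Other genes of the liver were described by lists. Beside the counts of each list below stand the 914 of all 20104 genes with an unadjusted p under 0.05 (limma). Of 39 further secreted liver proteins, 29 were tested and 0 passed (limma, 13 with an unadjusted p under 0.05), with median ratios of 0.11 on the female array and 0.43 on the male array. C3, the central complement component, had 0.09 and 1.58 (limma adjusted p = 0.569). F10, coagulation factor X, had 0.17 and 1.02, Serpinf2, alpha-2-antiplasmin, 0.20 and 0.96, and Serpina1a 0.17 and 0.96. Serpina1a, Serpina1c and Serpina1e belong to a group of near-identical paralogs. Their values are uncertain and may not be separate signals in the count that follows. At least 1.5-fold higher in the labelled knockout were 8 of the 29 on the male array, these 4 with Serpina1c, Serpina1e, F2 and Apoc1, against 0.92% of all genes, and 0 of the 29 on the female array, against 0.627%.

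Of 24 intracellular hepatocyte genes, mostly metabolic enzymes and receptors, 13 were tested, with median ratios of -0.03 and -0.04. Fabp1, a fatty acid binding protein gene, had 0.06 and 0.55 and Tdo2, of tryptophan breakdown, -0.34 and -0.20, and neither passed (limma adjusted p = 1 for each). Fabp1 was well above background in 2 of 4 channels. It thus passed the filter through a single genotype, and its values are a description only. The 11 that were not tested include Cps1, Arg1, Otc, Pck1 and Mat1a, of which the first 4 encode enzymes of the urea cycle or gluconeogenesis, and all 5 were well above background in 0 of 4 channels. The summed intensity of the 13 tested genes was, in units of 1000, 4.18 and 4.37 in the labelled knockout and 4.17 and 4.30 in the labelled control. The summed intensity of the 29 tested secreted genes was 43.7 and 51.5 in the labelled knockout and 45.3 and 42.6 in the labelled control. Such sums are carried by the brightest probes, here those of Apoe and Igf2. Levels of different probes cannot be compared, so the sums given here and below are not amounts of RNA.

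Of 14 hepatocyte transcription factors, 10 were tested and 0 passed (1 with an unadjusted p under 0.05), with median ratios of -0.10 and -0.01. Hnf4a had -0.04 and 0.49, Foxa2 -0.48 and -0.37, Tbx3 -0.38 and -0.04 and Foxa1 0.24 and 0.13. Foxa2 was well above background in 3 of 4 channels, so it passed the filter through a single genotype and its values are a description only. Prox1, Onecut1, Foxa3 and Nr0b2 were well above background in 0 of 4 channels. Of 13 known regulators of Afp, 12 were tested and 0 passed (4 with an unadjusted p under 0.05), with the Foxa genes shared by both lists. Of these 12, 1 was above 0 on both arrays and 5 were below 0 on both, against 4368 and 4948 of all 20104 genes. Zbtb20, a repressor of Afp in mouse liver, had -0.35 and -0.31 (limma adjusted p = 0.84), Nr2f2 -0.46 and -0.20 and Nr2f1 -0.47 and -0.14. Zhx2, which represses Afp after birth in mouse liver, was well above background in 1 channel. Of the 5 genes known to be controlled by Zhx2 in mouse liver as Afp is, all were tested, 0 passed (0 with an unadjusted p under 0.05) and the median ratios were -0.29 and 0.06. Dlk1 had -0.23 and -0.24, Gpc3 -0.29 and -0.05, Lpl -0.33 and 0.06 and H19 -0.20 and 0.12.

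Lists of other cell types that make liver-type proteins, or that could carry them, are given with their median ratios on the female and the male array. Of 19 visceral endoderm genes, some of which are also on the secreted list, 14 were tested and 0 passed (4 with an unadjusted p under 0.05), with medians of 0.04 and 0.20. Spink1 had 1.11 and 0.36. It was well above background in 3 of 4 channels, so it passed the filter through a single genotype and its ratios are a description only. Sox17, Dab2, Lrp2, Cubn and Hnf4a were well above background in 4 of 4 channels, and Gata4, Cdx2 and Apoa4 in 0. The ratios were -0.12 on both arrays for Sox17, -0.48 and 0.14 for Dab2 and -0.49 and -0.09 for Lrp2. Cubn had 0.05 and 0.27 and Hnf4a -0.04 and 0.49. Of 20 erythroid genes, 18 were tested and 0 passed (5 with an unadjusted p under 0.05), with medians of 0.00 and 0.23, and their summed intensity was 931 and 1062 in the labelled knockout and 1050 and 895 in the labelled control. Hbb-b1 had 0.45 and 0.21, Gata1 0.23 and 0.48 and Ahsp 0.32 and 0.36, whereas Hbb-bh1 had -0.29 and -0.30. Of the 18, 9 were above 0 on both arrays and 2 below 0 on both, against 4368 and 4948 of all 20104 genes. Of 14 intestinal genes, 8 were tested with medians of 0.10 and 0.15, and Clca1 passed at 0.58 and 0.97 (limma adjusted p = 0.0494). Krt20 had 0.70 and 0.62 (limma adjusted p = 0.0646), while Cdx1 and Cdx2 were well above background in 0 channels. Cdh17 had -0.38 and -0.06. With 3 of 4 channels well above background it passed the filter through a single genotype, and its ratios are a description only. Of 14 proximal tubule genes, 11 were tested, with medians of 0.05 and 0.09.

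Of 15 ureter epithelium genes, all were tested and 6 passed, each higher in the labelled knockout, with medians of 0.45 and 0.54. These were Upk3a (mean ratio 1.55), Upk1a (1.36), Upk1b (1.31), Grhl3 (1.09), Upk3b (0.77) and Pparg (0.69). The summed intensity of all 15 genes of the list was 270 and 240 in the labelled knockout and 224 and 209 in the labelled control. Of 14 ureter mesenchyme genes, all were tested and 0 passed (7 with an unadjusted p under 0.05), with medians of -0.30 and -0.05, and Foxf1 had -1.0045 and -0.40 (limma adjusted p = 0.163). A higher share of cells of a type and more RNA per cell cannot be told apart in these tissue samples. The part of the epithelial difference in the Afp and Ttr ratios was not tested.

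**Figure D5:**
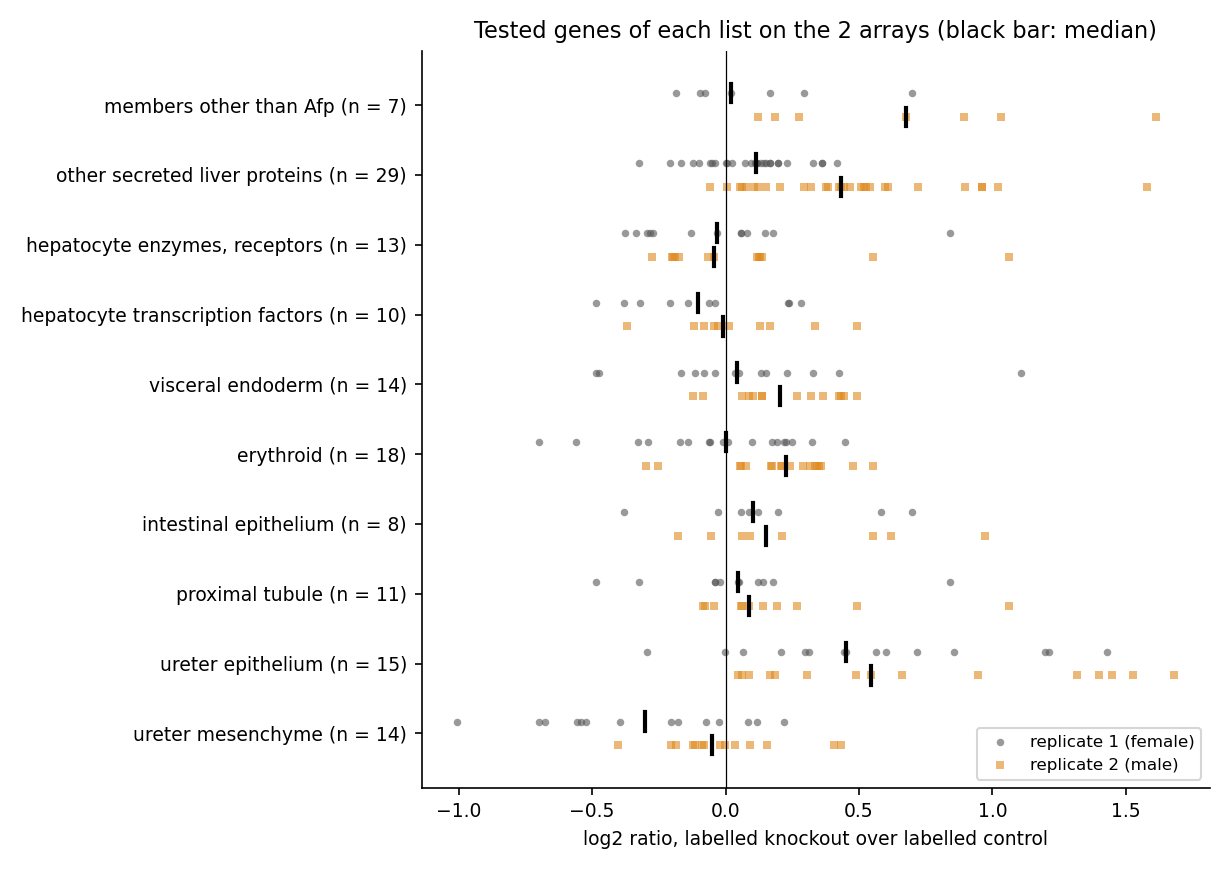
Log2 ratio of labelled knockout over labelled control for the tested genes of each list on replicate 1 (grey circles) and replicate 2 (orange squares), with black bars at the medians. The members other than Afp and the other secreted liver proteins have medians of 0.68 and 0.43 on the male array, against 0.02 and 0.11 on the female array, while the ureter epithelium list has 0.45 and 0.54 on the female and male arrays.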

How the data were processed

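The deposited spot intensity of 2 two-colour arrays, 4 channels in all, was extracted with Agilent Feature Extraction 10.7.3.1 (per the submitters' processing notes). The authors' deposited table holds a score, a signed fold per probe, whose direction by the labelled dyes was control over knockout, opposite to the order in the sample titles (against red over green, Pearson's r was 0.775 for replicate 1 and -0.704 for replicate 2). It was turned and used as an alternative. Its scaling, centring and flooring are not given in the sources used here.

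Mean signals were background-corrected by normexp (offset 50) and loess-normalised, giving control spots weight 0, in limma 3.58.1 under R 4.3.3. Outlier spots (3.52% and 3.66%) were dropped, no spot was saturated, and the 4 spots of a probe were averaged. A probe was kept where either genotype had 2 or more spots well above background on each array, and a gene was its brightest kept probe, which left 26522 of 39429 probes and 20104 genes. Ratios were turned to labelled knockout over labelled control and tested against 0 (lmFit and eBayes, two-sided, Benjamini-Hochberg over all genes), with 1 residual degree of freedom and 9.21 prior degrees of freedom. Channel intensities are log2 values after loess and Aquantile.

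On simulated data the test recovered 25 of 67 genes planted at 1.5-fold, all 67 planted at 2-fold and all 66 planted at 3-fold, and called 8 of 19904 unchanged genes. The simulated errors were independent draws from the fitted prior, and each planted shift was the same on both arrays. Array, dye and sex effects were not simulated. The recovery therefore does not carry over to genes whose ratios differ between the arrays. The channels of an array are paired by hybridisation, and the array ratio is that pairing. Genes were named from the array files, updated through RefSeq (28328 probes by accession, 3400 by symbol, 243 by older symbol, 7458 unmatched and kept as in the file). Promoters and names come from RefSeq, GRCm38.p6, and probes are placed on mm9 as the array files give them. Named genes were all members, the albumin family, genes of each list that passed or up to 4 with the largest absolute mean ratio, the 5 nearest to Afp and Smad4. The neighbours of the Afp and Alb genes, the sex-linked genes and some detected marker genes fall outside that rule. The members and lists were chosen with earlier results of these data known. Results of single genes, and the counts that passed, are in part not reported here for the hepatocyte and proximal tubule lists. Exons and UTRs were not used here. The number of arrays limits the precision.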

Additional observations from a re-analysis of the deposited data

Results flagged for a closer look

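In 3 members the ratio of labelled knockout over labelled control was below 0 on the female array and above 0 on the male array, and the differences were not tested. For Alb the log2 ratio on the male array minus that on the female array was 1.71. For Apoa2, by its brighter probe, it was 0.26, and for Fga it was 0.31. The Apoa2 and Fga ratios were within 0.2 of 0 on each array.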

How the results depend on the processing

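The count of 66 genes called became 131 with normexp at an offset of 0, 115 with no background correction, 255 with the scanner's processed signals, 191 with the authors' deposited values and 156 with an intensity trend in the prior. It became 0 with median centring in place of loess (where 347 had an unadjusted p under 0.05) and 0 with no filter on dim probes (1097), and the cause was not tested. With the pairing of channels dropped (no replicate block, 4 channels as unpaired samples), 26 genes were called, and Ttr had an adjusted p of 0.594 (limma), while the mean ratios were the same by construction. Under the other alternatives the Afp ratio ranged over 1.31 to 1.37. Leaving out 1 array, without replicate 2 and without replicate 1, gave 0.0186 and 0.68 for the median ratio of the members other than Afp, against 0.53 with both. The same 2 values were -0.095 and 1.61 for Alb, -0.075 and 0.19 for Apoa2, -0.187 and 0.12 for Fga, -0.039 and 0.491 for Hnf4a, -0.334 and 0.058 for Lpl and -0.197 and 0.117 for H19, so each of these turned its sign on 1 of the arrays. H19 also turned with median centring (0.067) and with the mean over kept probes (0.033). Ttr did not pass with median centring, with no filter or unpaired. Of the other tested members besides Afp, Fgb passed in 3 alternatives, Alb in 1, Apob in 1 of 9 and Apoa2, Fga and Ahsg in 0. After centring on the median gene, the difference between the arrays moved with loess alone for Ttr (0.39) and Apob (0.41). It also moved with processed signals, centred likewise, for Ttr (0.65), Apob (1.19) and Fga (0.34), and the cause was not tested. With 2 arrays, leaving either out allows no test.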

Other observations

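Several further genes resembled Alb in being high in the male labelled knockout alone. They were chosen after their values were seen, as genes with a log2 ratio of at least 1.5 on the male array and less than 1.5-fold on the female array. Prap1 had log2 intensities of 8.70 on the female array and 11.1 on the male array in the labelled knockout, and of 8.25 and 8.79 in the labelled control, with ratios of 0.45 and 2.30. Retnla, a secreted resistin-like protein gene, had ratios of 0.02 and 2.09, and Saa3, a serum amyloid A gene, 0.08 and 1.74. C4b, a complement component gene, had -0.14 and 1.66, Prg4, the lubricin gene, -0.26 and 1.65, and C3 0.09 and 1.58. None passed the test (limma adjusted p between 0.194 for Prap1 and 1 for Prg4).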
